A study of Caenorhabditis elegans with 4 samples.

Results

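The nematode Caenorhabditis elegans has a zinc finger protein, LSY-2, that regulates transcription and is best known for acting in the ASE taste neurons, where the left and the right cell come to differ. The regions described here are those that LSY-2 occupied on the X chromosome in embryos. They were chosen by position alone, as every row of the authors' combined peak list whose sequence name is X, and numbered 426 of 3669. The peak lists of the single ChIP samples held 4442 X peaks of 30000 in replicate 1 and 4461 of 30000 in replicate 2. The 4 samples of the series are 2 LSY-2 GFP ChIP samples and 2 inputs, which are total DNA of the same kind of chromatin; input values were not used here.

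All 4 samples came from embryos of strain OP367, in a population of males and hermaphrodites kept at 20 °C. The strain carries the mutation unc-119(ed3) and the transgene wgIs367, in which lsy-2 is joined to TY1, EGFP and FLAG tags and unc-119 is added as the marker of transformed animals. It was made by bombardment, so the transgene comes on top of the animal's own genes. Chromatin was fixed in 2% formaldehyde, and antibodies to GFP precipitated the tagged protein. Whether each replicate was a culture of its own is not stated in the labels, and the number of reads behind a peak is unknown. Each value below therefore describes these 2 libraries, and the intervals given are exact Clopper-Pearson 95% intervals that cover the counting of peaks only.

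The X chromosome of this animal is present as a pair in hermaphrodites and singly in males. In hermaphrodite embryos the dosage compensation complex, a condensin-like assembly, binds along both X chromosomes and lowers their transcription. X is also known for carrying few of the genes that are active in the germ line. The lsy-2 gene itself is on X in the assembly WBcel235, whereas unc-119 is on III. Peak positions are in another build, WS220, for which no genome or annotation was used here, so the regions are named by position without genes or sequences. Which X region, if any, covers lsy-2 was not analysed here.

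LSY-2 regions were sparse on X. The 426 regions lay at 24.1 per Mb of the 17.7 Mb that X peaks span, against 39.3 per Mb on the 5 autosomes. X thus held 11.6% of the combined peaks (interval 10.6% to 12.7%) on 17.7% of the summed span. It was not the sparsest chromosome, since V had 21.4 per Mb, and IV with 32.9 per Mb came next above X. Among the first 3669 ranks of the single samples, a depth equal to the length of the combined list, X held 420 peaks in replicate 1 and 454 in replicate 2, or 23.7 and 25.6 per Mb.

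The X regions also stood low in the ranking. Rank here is the number in a peak's name, read with 1 as the best, which no source states. The authors' score cannot replace it, because it reached its maximum of 3.80 in 354 of the 426 X peaks. The median rank was 2027 on X (25th to 75th percentile 1248.25 to 2921.75) and 1810 on the autosomes (870.5 to 2736.5). On single autosomes the median lay between 1754.5 on I and 1897 on III. Among the first 1834 ranks, which hold 50% of the whole list, were 191 X peaks, or 44.8% of the X peaks (interval 40.0% to 49.7%), and 50.7% of autosomal peaks (48.9% to 52.4%). Scores below the maximum were found in 72 X peaks, or 16.9% (13.5% to 20.8%), against 13.8% (12.6% to 15.0%) on the autosomes and 14.2% in the whole list, and these intervals overlap.

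The X share was lowest among the first 1000 ranks. Of the 426 X regions 70 stood among the first 1000 combined ranks, or 16.4% (13.0% to 20.3%), against 28.7% of autosomal regions (27.1% to 30.3%) and 27.3% of the whole list. X held 33 of the first 500 combined ranks, or 6.60%, and 37 of the next 500, or 7.40%. It then held 77 of ranks 1001 to 1500, or 15.4% (12.3% to 18.9%), an interval that lies above those of both earlier blocks, 4.59% to 9.14% and 5.26% to 10.1%. From rank 1501 to the end of the list, X held 12.0% to 13.5% of each block, still below its 17.7% of the span.

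Both single samples showed the low share among the best peaks. In replicate 1 X held 7.06% of nuclear peaks in ranks 1 to 500, 8.92% in ranks 501 to 1000 and 13.1% in ranks 1001 to 1500. In replicate 2 the corresponding shares were 7.29%, 8.89% and 10.8%, and the highest value, 16.7%, came in ranks 2001 to 2500. In each sample the intervals of ranks 501 to 1000 and 1001 to 1500 overlap, 6.56% to 11.8% and 10.2% to 16.4% in replicate 1 and 6.53% to 11.7% and 8.25% to 13.9% in replicate 2, so the step of the combined list was not resolved there. Far down the lists, in ranks 25001 to 30000, the X share was 16.5% (15.5% to 17.6%) in replicate 1 and 16.0% (15.0% to 17.1%) in replicate 2. Weak peaks recurred poorly between the samples, as described below, so these shares may hold background.

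**Figure D1:**
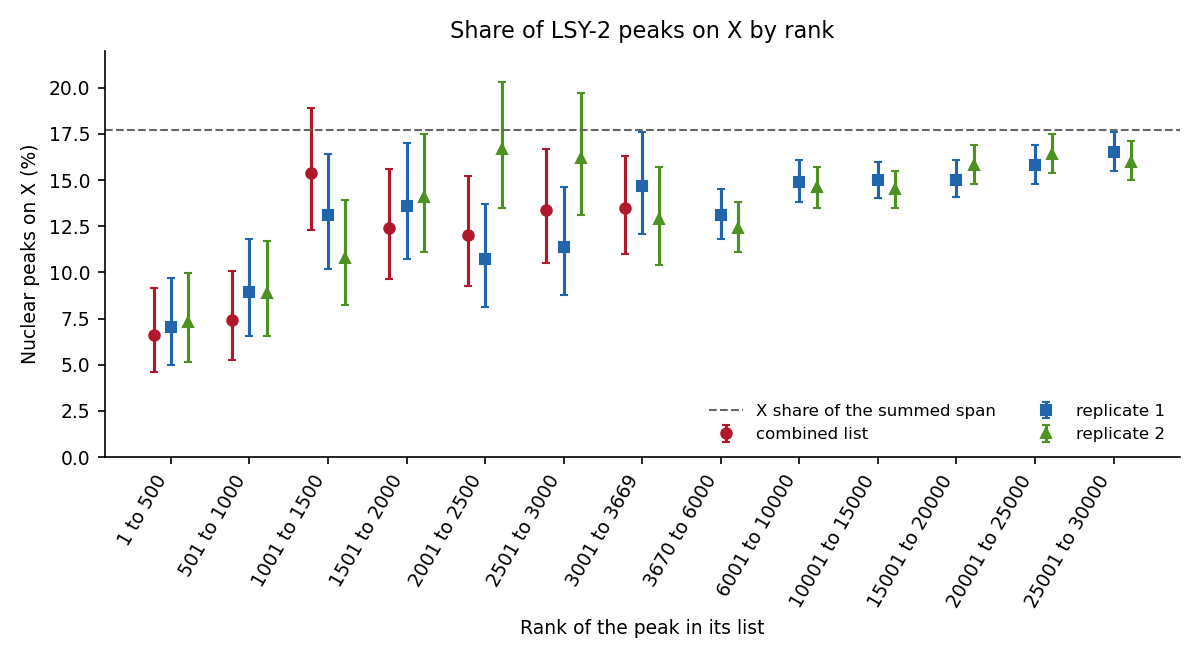
Share of nuclear peaks that lie on X (y axis, percent) in successive blocks of rank (x axis) in the combined list, replicate 1 and replicate 2; bars are exact 95% intervals and the dashed line is the 17.7% of the summed span that X makes up. All 3 lists start between 6.60% and 7.29% in ranks 1 to 500, and both replicates reach 16.0% or more in ranks 25001 to 30000.

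The strongest X regions were found at nearly the same rank in both samples. They were picked by rank in the combined list of these same 2 samples, so some of this closeness may be built in. The best was X:15840966-15841483, rank 6 of the combined list, with ranks 5 and 6 in replicates 1 and 2. X:2242718-2243186 came second, at combined rank 21, with ranks 28 and 16 in the samples. X:2089406-2089919 had combined rank 42, with ranks 34 and 54 in replicates 1 and 2. It lay in the crowded stretch described below, whose limit on copies of the DNA applies to it. Only 4 X regions stood among the first 100 combined ranks, and the last of them was X:4711857-4712317 at rank 80 (ranks 78 and 90). X:768066-768480 followed at rank 108, with ranks 111 and 107, and X:4818227-4818618 at rank 127, with ranks 136 and 111. X:2688523-2688889, at combined rank 157, held rank 160 in both samples.

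The 20 best X regions reached down to combined rank 293. Each had the top score in all 3 lists. The weakest rank among them was 321 in replicate 1 and 405 in replicate 2, and the midpoints of the replicate peaks lay a median of 8.75 bp and at most 38.5 bp apart. Their widths were 269 to 518 bp. The largest difference in rank among them, 163, was that of X:6296341-6296687, which held ranks 242 and 405 in the 2 samples. The other members, in rank order, were X:2090561-2090832, X:6091996-6092310, X:17434218-17434501, X:14525556-14526066, X:13700591-13700944, X:11093892-11094312, X:2071469-2071737, X:4209102-4209437, X:14312502-14312793, X:806524-806823, X:16681919-16682199 and X:4523937-4524235. The 20 were placed unevenly along the chromosome, with 13 left of the middle of X and none between 6296687 and 11093892. Of the 20, 7 had another combined peak within 5 kb.

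Nearly every X region was present in both samples. Of the 426, 422 overlapped a peak of each replicate by at least 1 bp, or 99.1% (97.6% to 99.7%), against 99.2% (98.9% to 99.5%) of autosomal regions and 99.2% of the whole list. The caller's last step, IDR, weighs how consistently peaks recur between replicates, so a high share may be built into the list. At a reciprocal overlap of 50% the order of the groups turned, with 89.7% of X regions and 82.6% of autosomal ones in both samples. A region much narrower than its replicate peak cannot reach that overlap. Regions narrower than the common width of 370 bp made up 13.1% of X and 25.2% of autosomal regions. The part of width in the turn was not tested. Replicate 1 alone held X:2082037-2082406 (combined rank 2428, rank 1180 in replicate 1) and X:13969531-13969900 (combined rank 3513, rank 7334). Replicate 2 alone held X:10568297-10568666 (combined rank 2857, rank 1431 in replicate 2) and X:1081950-1082319 (combined rank 2868, rank 1539).

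A stricter form of recurrence asks that a region lie within the first 3669 ranks of each sample. On X 281 regions did, or 66.0% (61.2% to 70.5%), against 69.0% of autosomal regions (67.4% to 70.6%) and 68.6% of the whole list. The X interval contains the autosomal share. Within the first 2000 ranks of each sample it did not, with 34.0% of X regions (29.5% to 38.8%) and 41.8% of autosomal ones. With a reciprocal overlap of 50% as the measure, X stood at 56.6% and the autosomes at 52.8%. By the first measure, an overlap of at least 1 bp and the first 3669 ranks of each sample, all 70 X regions among the first 1000 combined ranks met the mark. Of the 139 in ranks 1001 to 2000, 93.5% met it, of the 127 in ranks 2001 to 3000, 53.5%, and of the 90 in the last block, 14.4%. The autosomal shares in those 3 blocks were 95.2%, 49.5% and 10.0%, and each lies inside the X interval of its block. In the last block X:16612392-16612761, X:410226-410595 and X:11606145-11606351 met the mark with a replicate peak shared with a better ranked region. Over all ranks such sharing in replicates 1 and 2 concerned 2.36% and 1.89% of X regions, against 3.72% and 3.74% of autosomal ones.

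Positions grew less exact as rank fell. Midpoints of the best overlapping replicate peaks lay a median of 36.0 bp apart over the X regions (interval of the median 31.0 to 43.0 bp) and 29.0 bp apart over the autosomal ones (28.0 to 31.0 bp). By rank the X medians were 12.5 bp in ranks 1 to 500, 17.0 bp in ranks 501 to 1000, 26.0 bp in ranks 1001 to 2000, 59.0 bp in ranks 2001 to 3000 and 68.0 bp beyond. The autosomal medians in the same blocks were 9.0, 21.2, 30.8, 44.5 and 61.5 bp. In the first 1834 ranks as a whole the medians were 19.0 bp on X and 20.0 bp on the autosomes. Of the 5 blocks, only in ranks 2001 to 3000 were the intervals apart, 50.0 to 64.0 bp on X and 40.0 to 48.0 bp on the autosomes.

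Ranks in the 2 samples were less closely tied on X than on any autosome when all ranks were taken. Spearman's rho of the replicate ranks was 0.537 over 422 X regions, against 0.676 over 3218 autosomal regions and 0.636 (V) to 0.707 (II) on single autosomes. With the first 1000 combined ranks left out, where X has few regions, rho was 0.254 over 352 X regions and 0.209 over 2290 autosomal ones. The autosomes then ranged from 0.151 on I to 0.247 on II, all below X. Within the first 1834 ranks X was again lowest, at 0.470 over 191 regions against 0.728, with V at 0.645. These correlations are across regions of the same 2 libraries and are given as descriptions.

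Some X regions had very unequal ranks. X:13121053-13121422, combined rank 2069, held rank 956 in replicate 1 but only 27036 in replicate 2. The 4 that followed by difference leaned the other way. X:14588991-14589360 held rank 27124 in replicate 1 and rank 2814 in replicate 2, and X:7234885-7235254 held ranks 23985 and 2592. X:4971439-4971808 held ranks 22962 and 2120, and X:11947029-11947398 ranks 22746 and 2074. Ranks differed by more than 10000 in 17 X regions, 12 of which were weaker in replicate 1. This was 4.03% of X regions (2.36% to 6.37%) and 2.89% of autosomal regions (2.34% to 3.53%), and these intervals overlap. Over all X regions the better rank was in replicate 2 for 224 of 421 that differed, or 53.2% (48.3% to 58.1%).

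**Figure D2:**
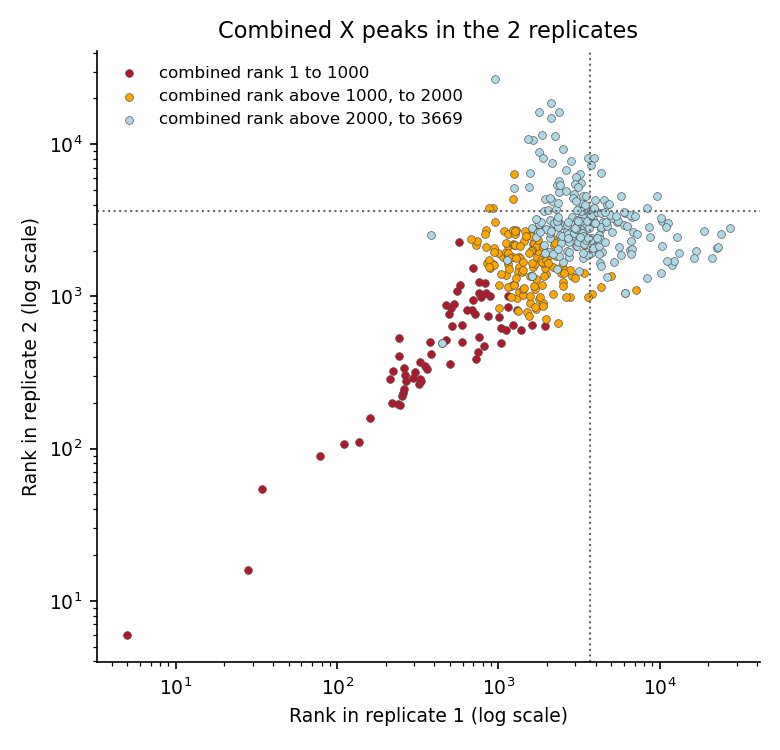
Rank in replicate 1 (x axis, log scale) and replicate 2 (y axis, log scale) of the 422 combined X regions found in both samples, coloured by combined rank; dotted lines mark rank 3669. The 70 regions of combined rank 1 to 1000 all lie below both lines, and a few regions of lower rank reach ranks above 20000 in 1 of the samples.

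The combined list left out a few X regions that ranked high in both samples. X:5429442-5429561 held rank 319 in replicate 1 and its partner rank 385 in replicate 2, and no combined peak overlapped either; the nearest one was 50596 bp away. Of the replicate pairs ranked within 500 in both samples, it was 1 of 30 on X, against 0 of 392 on the autosomes, whose exact upper limit is 0.937%. X:8545940-8546319 (ranks 1077 and 876) and X:7264959-7265338 (ranks 1394 and 1124) were absent too. Up to rank 1500 in both samples the combined list missed 3 of 87 X pairs, or 3.45% (0.717% to 9.75%), and 4 of 1034 autosomal pairs, or 0.387% (0.106% to 0.987%). Up to rank 3669 it missed 13 of 295 X pairs, or 4.41% (2.37% to 7.42%), and 38 of 2288 autosomal pairs, or 1.66% (1.18% to 2.27%). The last 2 intervals do not overlap, while the others do.

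Among the 5 best X peaks of each replicate without a combined peak, those 3 places were in both sets. The others of replicate 1 were X:4457872-4458251 (rank 1062, and rank 2147 in replicate 2) and X:10132498-10132877 (rank 1470, and rank 10859 in replicate 2). Those of replicate 2 were X:4606282-4606637 (rank 1031, and rank 6308 in replicate 1) and X:4223024-4223379, at rank 1496, which overlapped no replicate 1 peak.

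Recurrence can be read without the combined list. Of the X peaks in the first 3669 ranks of replicate 1, 295 of 420 overlapped a peak within those ranks of replicate 2, or 70.2% (65.6% to 74.6%), against 70.9% on the autosomes. In the reverse direction it was 296 of 454, or 65.2% (60.6% to 69.6%), against 71.2% (69.6% to 72.7%). The first autosomal share lies within the X interval and the second is just outside. With both lists cut at rank 1000, X was lower in both directions. It had 64.6% of replicate 1 peaks (53.0% to 75.0%) and 63.8% of replicate 2 peaks (52.2% to 74.2%) recovered, against 77.9% and 77.6% on the autosomes. This did not hold without the cut. All X peaks of ranks 1 to 500 (35 and 36 in replicates 1 and 2) and 501 to 1000 (44 and 44) overlapped a peak of the other sample at some rank. On the autosomes 99.3% to 99.8% did in these blocks. Weak peaks recurred less on X. Of ranks 20001 to 30000, 28.2% (26.0% to 30.4%) of X peaks of replicate 1 and 27.6% (25.5% to 29.9%) of replicate 2 overlapped any peak of the other sample, against 33.8% and 33.4% of autosomal peaks. The summed width of the peaks also differed, 9.50% and 8.94% of the X span in replicates 1 and 2 against 11.7% and 10.9% of the autosomal span. Its part in the difference was not tested.

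X regions were more uniform in width. A width of exactly 370 bp was found in 360 of the 426, or 84.5% (80.7% to 87.8%), against 69.3% (67.7% to 70.9%) of autosomal regions and 71.1% of the whole list. Single autosomes ranged from 67.3% on I to 71.9% on V, and the highest of their upper limits, 76.0% on V, lay below the lower limit of X. Narrower regions made up 13.1% of X and 25.2% of the autosomes. Regions wider than 370 bp were 10 on X, or 2.35%, against 5.55% on the autosomes. The wide ones were strong on X and elsewhere, with a median rank of 117.5 on X, 94.5 on the autosomes and 115.5 on V. None on X stood past rank 384, and none on V past rank 159. The widest X region measured 547 bp, and the widest autosomal one 1503 bp.

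Width went with rank, so the comparison was repeated within blocks of rank. In ranks 1 to 500, 0 of 33 X regions and 3 of 467 autosomal ones had the common width, and the exact upper limit for X is 10.6%. In ranks 501 to 1000 it was 40.5% on X (24.8% to 57.9%), against 21.0% on the autosomes (17.3% to 24.9%). In ranks 1001 to 2000 it was 92.8% on X (87.2% to 96.5%), against 83.4% on the autosomes (80.7% to 85.8%). Beyond rank 2000 nearly all regions had it on X and on the autosomes. Past rank 500 the share was 91.6% on X (88.4% to 94.1%) and 80.8% on the autosomes, where V was highest with 83.4% (79.3% to 87.0%). In the first 3669 ranks of the single samples the share with their own common width was also higher on X. In replicate 1, where that width is 380 bp, it was 91.9% on X and 84.3% on the autosomes, and in replicate 2, where it is 356 bp, 92.5% and 83.1%.

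**Figure D3:**
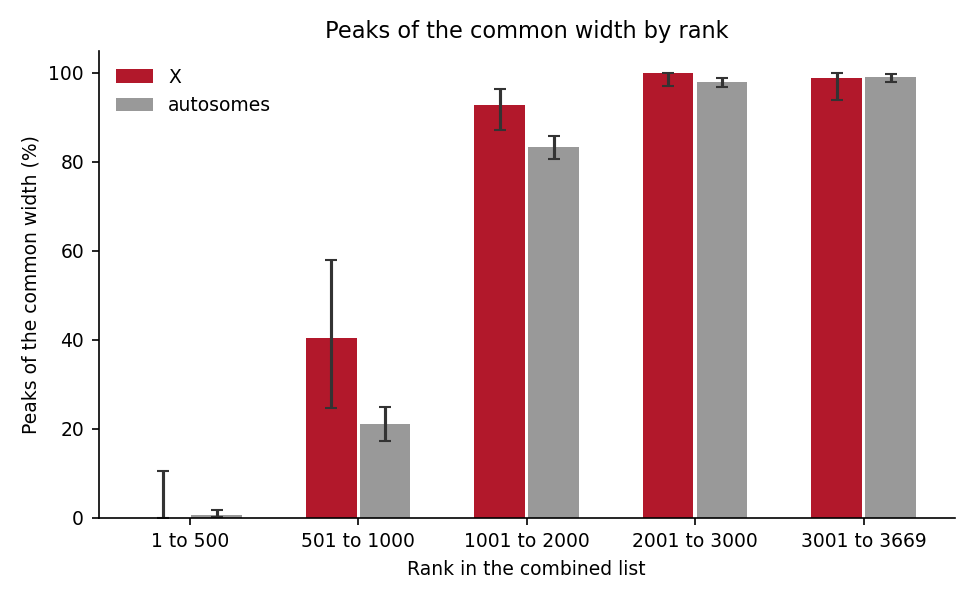
Share of combined peaks with the common width of 370 bp (y axis, percent) on X and on the autosomes in 5 blocks of combined rank (x axis); bars carry exact 95% intervals. The X bar is the higher one in ranks 501 to 1000 (40.5% against 21.0%) and 1001 to 2000 (92.8% against 83.4%), and both are near 100% beyond.

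Along X the regions showed no central excess, as on some autosomes. Of the 426, 43.9% (39.1% to 48.8%) lay in the central 50% of the span, against 54.1% (52.4% to 55.9%) on the autosomes and 53% of the whole list. Single autosomes ranged from 49.8% on III (46.4% to 53.3%) and 50.6% on II (46.7% to 54.6%), whose intervals overlap that of X, to 57.4% on I and 62.9% on V. By rank, X was below the autosomes in every block up to rank 3000. In ranks 1 to 500 it had 39.4% (22.9% to 57.9%) against 59.5%. In ranks 501 to 1000 it had 54.1% (36.9% to 70.5%) against 60.7%. The shares were 38.1% (30.0% to 46.7%) against 55.6% in ranks 1001 to 2000. In ranks 2001 to 3000 they were 42.5% (33.8% to 51.6%) against 51.4%. Only past rank 3000 was X higher, at 52.2% (41.4% to 62.9%) against 46.5%. The autosomal share lay outside the X interval in ranks 1 to 500 and 1001 to 2000, and inside it elsewhere. The left 25% of the X span held 115 regions and the right 25% held 124. Within the first 3669 ranks of single samples the central share of X was 47.1% in replicate 1 and 48.0% in replicate 2, with intervals that include 50%, against 54.2% and 54.5% on the autosomes. In the whole lists X and the autosomes stood close, at 46.6% against 47.9% in replicate 1 and 47.1% against 47.9% in replicate 2.

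Every Mb of X held LSY-2 regions. The fullest were bases 2000001 to 3000000 and 14000001 to 15000000, with 38 combined regions each, and the emptiest was 9000001 to 10000000, with 13. The median over the 18 bins was 23.5. The first of these was also the fullest in the single samples, with 37 and 39 peaks among the first 3669 ranks and 372 and 373 peaks in the whole lists of replicates 1 and 2. In the whole lists the median bin had 244.5 and 239.5 peaks. The bin 14000001 to 15000000 had 36 and 31 peaks among the first 3669 ranks, but its 261 and 266 peaks in the whole lists were nearer to the median. The same 2000001 to 3000000 bin held 9 of the 70 X regions within combined ranks 1 to 1000, more than any other bin. It contains the crowded stretch described below, whose limit on copies of the DNA applies here too.

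Most X regions stood alone. Neighbouring midpoints lay a median of 22530 bp apart (interval of the median 19336 to 28143 bp), against 12132 bp (11212 to 13055.5 bp) on the autosomes and 22266 bp on V, the chromosome of closest density. Another region within 5 kb was found for 129 X regions, or 30.3% (26.0% to 34.9%), against 47.9% (46.2% to 49.7%) of autosomal regions and 45.9% of the whole list. V had 35.0% (30.6% to 39.7%), which overlaps the X interval. Joining X regions with midpoints within 5 kb gave 349 groups, of which 297 were single regions, 37 were pairs and 15 held 3 or more. By rank the share with a neighbour was 45.5% for X regions of ranks 1 to 500 (28.1% to 63.6%) and 13.5% for those of ranks 501 to 1000 (4.54% to 28.8%). It was 30.9%, 26.0% and 36.7% in the 3 later blocks, so it did not fall steadily with rank. On the autosomes it was 44.7% to 50.9% in all 5 blocks.

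**Figure D4:**
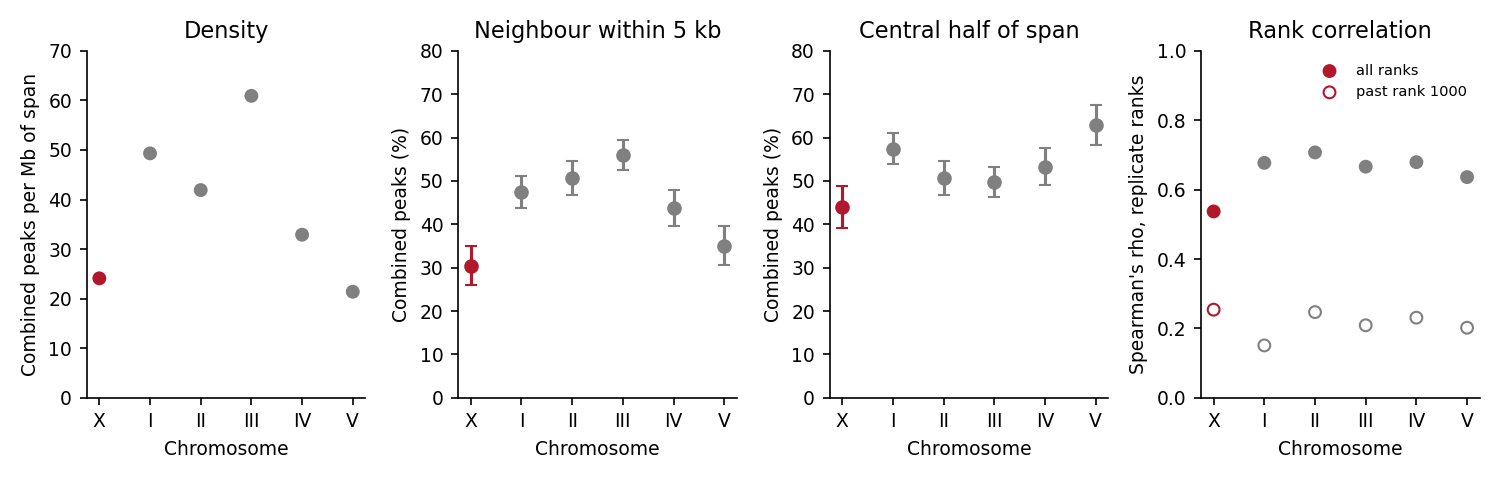
Combined peaks per Mb of span, share of peaks with a neighbour within 5 kb, share in the central 50% of the span (percent, with exact 95% intervals), and Spearman's rho of the replicate ranks, for X and each autosome. X has 24.1 peaks per Mb and rho 0.537, or 0.254 past rank 1000 (open circles).

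The most crowded place on X was near 2.1 Mb. In windows of 50 kb the fullest was 2050001 to 2100000, with 10 combined regions, followed by the adjoining 2100001 to 2150000 with 7, while 136 of the 355 windows on X held 0. Groups of 4, 6 and 7 regions lay in a row there, from X:2071469-2077006 and X:2082037-2090832 to X:2100066-2108445. The stretch of 37.0 kb from 2071469 to 2108445, delimited after its values were seen, held 17 regions, 3.99% of those on X. The single samples had 19 and 15 peaks there among the first 3669 ranks and 46 and 39 in their whole lists. Over the entire X span the whole lists of replicates 1 and 2 had 251 and 252 peaks per Mb. Whether the stretch covers lsy-2, which the transgene adds to the animal's own gene, was not analysed. Extra copies of the DNA there therefore cannot be told apart from crowded binding.

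Strength within the stretch was uneven. Its 3 strong members were X:2089406-2089919 at combined rank 42, X:2090561-2090832 at rank 207 and X:2071469-2071737 at rank 248. The next best was X:2083866-2084235 at rank 1051, with rank 724 in replicate 1 and 2170 in replicate 2. X:2086738-2087107 held rank 1889, X:2076637-2077006 rank 2018, X:2073972-2074341 rank 2265, X:2088721-2089090 rank 2291, X:2082037-2082406 rank 2428 and X:2075894-2076263 rank 3442. The 7 regions of the rightmost group had combined ranks of 1896 to 3452, and only 3 of them stood within the first 3669 ranks of both samples.

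The longest stretch of X without a combined region ran from 8836029 to 9102067, with midpoints on either side 266307.5 bp apart. It was not empty in the single samples, which had 66 and 43 peaks inside it, but only 0 and 1 of these in replicates 1 and 2 stood within the first 3669 ranks. The region at its left edge had combined rank 582 and the one at its right edge rank 3085. The outermost regions of X were X:47488-47857, at combined rank 2720 with ranks 3509 and 2983, and X:17610318-17610687, at combined rank 1913 with ranks 2986 and 1315.

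X was also set against the autosomes within each library, over the first 3669 ranks. Both libraries gave X fewer peaks per Mb, with a mean difference of -14.3 (SD 1.63, n = 2, X minus autosomes). They also gave a lower percentage in the first 1000 ranks, with a mean difference of -10.1 points (SD 1.02), and a higher percentage of the common width, by 8.50 points (SD 1.29). The percentage in the central 50% was lower in both, with a mean difference of -6.81 points (SD 0.411), as was that with a neighbour within 5 kb, with -15.4 points (SD 4.97). In an exact sign permutation test each of the 5 had p = 0.5, the smallest that 2 libraries allow, so none could pass a threshold of 0.05.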

How the data were processed

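The deposited files are peak lists, 1 for each LSY-2 GFP ChIP sample and 1 combined, in build WormBase WS220, per the file headers. Each peak has a score given by the authors, on a scale that is not stated, and field 2 names SPP and IDR as its source. For the aligner, tool versions, thresholds and any pooling of reads the entry is the same: not given in the sources used here.

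Mitochondrial peaks stayed out of shares. The number in a peak's name was read as its rank, which no source states, and put tied scores in order. Untied scores did not always follow it. On X the combined score rose from 3.325 at rank 3151 to 3.341 at rank 3267. A combined peak took the best ranked replicate peak that it overlapped by at least 1 bp; on X, 10 and 8 combined peaks shared such a peak with a neighbour in replicates 1 and 2. The span of a chromosome is what its peaks in the 3 lists cover from end to end. Named peaks are the 20 best ranked on X, the 5 with the largest difference in replicate rank, those missing in a replicate, those of the fullest 50 kb window, the outermost ones, and the 5 best of each replicate without a combined peak. Regions and measures were chosen with earlier results of these data known. X was set against the autosomes within each of the 2 libraries by an exact sign permutation test (two-sided), which cannot go below p = 0.5 with 2 libraries. The steps were tested on simulated data. Tables were computed in Python 3.11.15 with pandas 2.3.3 and numpy 2.4.6, intervals with scipy 1.17.1, and figures drawn with matplotlib 3.10.9.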

Additional observations from a re-analysis of the deposited data

How the results depend on the processing

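Of 35 alternatives to 11 values on X, 14 stayed within the interval of the value reported or, for the rank correlation, within 0.1 of it, and 21 did not. The cause was not tested, except where a criterion is stricter or looser by construction. With the first 3669 ranks of 1 replicate alone, the X share was 11.5% to 12.4%, the share of X peaks in the better 50% of ranks 39.4% to 45.0%, the central share 47.1% to 48.0% and the share with a neighbour within 5 kb 30.2% to 36.3%. In the better 50% of the combined list the X share was 10.4% and the share found in both replicates 100%. The share of the common width was 66.0% there (41.4% on the autosomes). With neighbours counted among the peaks of that 50% only, 13.1% of X regions had one (29.9% on the autosomes). Fewer peaks can be neighbours there by construction, so this is not the measure behind the 30.3% reported. The median offset there was 19.0 bp (20.0 bp on the autosomes). The order of X and autosomes in the offset thus turned there. Merging peaks within 5 kb gave an X share of 13.3%. At a reciprocal overlap of 50%, the share of X regions in both replicates was 89.7% (82.6% on the autosomes), that within the first 3669 ranks of both 56.6% (52.8% on the autosomes), and recovery of replicate 1 peaks 65.0% (63.6% on the autosomes) and of replicate 2 peaks 60.6% (64.0% on the autosomes). X thus stood above the autosomes in all of these but the last, unlike in the values reported. Only for the share in both replicates (X interval 86.4% to 92.4%) did the autosomal share lie outside the X interval. With midpoints within 100 bp, 91.1% were in both. Within the first 2000 ranks of both were 34.0% of X regions (29.5% to 38.8%) and 41.8% of autosomal ones, which lies outside that interval. With both lists cut at rank 1000, recovery on X was 64.6% of replicate 1 peaks (interval 53.0% to 75.0%) and 63.8% of replicate 2 peaks (52.2% to 74.2%), against 77.9% and 77.6% on the autosomes. For whole lists it was 40.7% and 40.0% on X, against 48.7% and 48.0%. A neighbour was found within 2 kb for 16.7% and within 10 kb for 52.3%. Between the replicates, Spearman's rank correlation of the scores was 0.0847 over the X regions, since most tie. Past rank 500, a limit chosen after seeing the data, 91.6% of X regions had the common width. Leaving out the fullest 50 kb window on X was also chosen then and gave an X share of 11.4%.

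No paired analysis was possible because input values were not used here, so ChIP samples could not be set against the inputs of the same number.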
